A study of Mus musculus with 4 samples.

Results

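Oligodendrocyte precursors (OPC) were picked out of the snRNA-seq data of mouse thalamus by a marker gate, and 840 of 32241 nuclei passed it. A nucleus was counted as an OPC when it held at least 1 unique molecular identifier (UMI, a tag that counts RNA molecules) of Pdgfra, at least 10 UMIs per 10000 over Pdgfra, Vcan and Cspg4, and fewer over the genes of committed precursors (9630013A20Rik and Enpp6). It also had to hold under 3 UMIs per 10000 of fibroblast genes (Col1a1, Col1a2 and Dcn) and under 20 of mature oligodendrocyte genes (Mobp, Prr5l, St18, Mag and Mog). The 4 libraries came from wild-type (WT) C57BL6 mice aged 7 to 8 weeks. In the NS group, saline was injected into the thalamus, and in the COL group the right ventral posteromedial and ventral posterolateral nuclei (VPM and VPL) received type IV collagenase (Coll IV) at 0.01 U in 10 nl, an enzyme that digests vessel walls and so causes a bleed. Each library pooled tissue of 3 mice taken 7 days after the injection, and the model therefore carries no account of single animals. The gate found 261 and 245 OPC in NS replicates 1 and 2, and 140 and 194 in COL replicates 1 and 2. With 2 libraries per group, p-values measure the spread between these pools of mice only.

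OPC are the dividing glia that renew themselves throughout adult life and give rise to committed precursors and then to myelinating oligodendrocytes. They carry the PDGF receptor alpha, receive synapses from neurons, and are known to divide, migrate and gather around lesions of the brain. Vcan (versican) and Cspg4 (NG2) are chondroitin sulphate proteoglycans of their surface and matrix.

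The label was checked against 6 markers, in UMIs per 1000000 UMIs of the summed OPC nuclei of each library (CPM). Pdgfra stood at 709, 706, 542 and 580 CPM in NS 1, NS 2, COL 1 and COL 2, Vcan at 880, 1012, 1415 and 1204 CPM, and Cspg4 at 446, 436, 246 and 311 CPM. The nuclei were chosen by these genes, so their levels are given as a description. The markers that the gate did not use were also high in OPC. Neu4, a sialidase, stood at 140, 161, 111 and 115 CPM in OPC and at no more than 3.39 CPM in mature oligodendrocytes, while committed precursors held up to 152 CPM. Cacng4, an auxiliary subunit of AMPA receptors, stood at 863, 871, 942 and 954 CPM in OPC and at 15.9 to 23.6 CPM in mature oligodendrocytes. C1ql1, a secreted C1q-like protein, stood at 119, 145, 62.1 and 78.0 CPM in OPC and at most 10.4 CPM in mature oligodendrocytes. All 6 markers were present in every library, and the name OPC was kept.

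**Figure D1:**
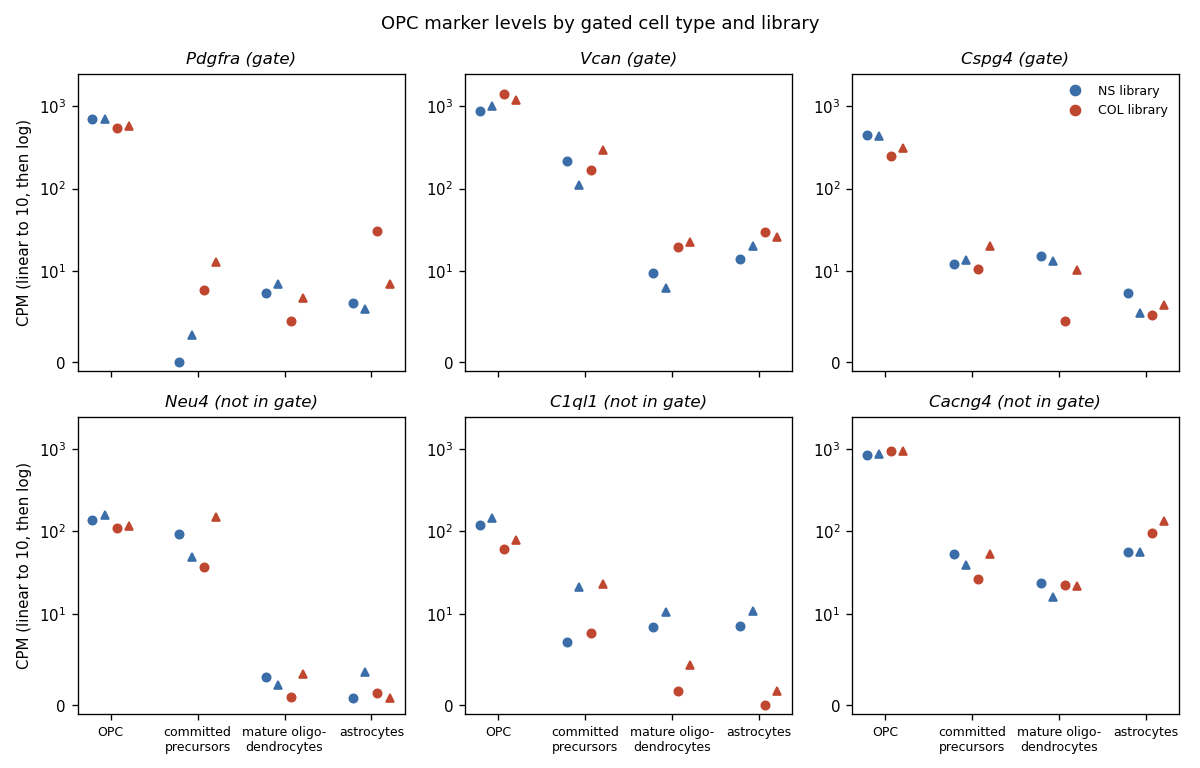
Levels of OPC markers in CPM (axis linear to 10, then log) in the gated OPC and in other gated cell types, with 1 point per library (circle, replicate 1; triangle, replicate 2; blue, NS; red, COL). Cacng4 sits between 863 and 954 CPM in OPC and between 15.9 and 23.6 CPM in mature oligodendrocytes.

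Near the edge of the gate, 26, 26, 12 and 9 nuclei of NS 1, NS 2, COL 1 and COL 2 held 10 to 12 UMIs per 10000 of the gate's 3 precursor genes, and 21, 22, 7 and 11 nuclei just outside it held 8 to 10. The OPC sums rested on 1360874, 1096292, 1095407 and 1666715 UMIs. The median OPC held 4825 and 4216 UMIs in NS and 7236.5 and 7680 UMIs in COL, so nuclei of the COL libraries were deeper. No barcode was shared between libraries among the OPC. No doublet caller was run. Transcripts of neurons (7 of 7 markers detected in each library) summed to 554 and 575 CPM in the NS OPC and to 419 and 460 CPM in the COL OPC. Macrophage markers summed to 3.67 and 10.0 CPM in the NS OPC, with 3 and 5 of 7 detected, and to 127 and 193 CPM in the COL OPC, with 7 and 6 detected. Lyz2 and Mrc1 were at 0 in both NS libraries. Over all nuclei the same macrophage markers summed to 7.13, 12.9, 147 and 306 CPM, in the same order of libraries. Microglial markers, all 7 detected in each library, summed to 104, 142, 121 and 224 CPM in OPC. Markers of T and NK cells summed to 5.88, 1.82, 10.95 and 40.2 CPM, and those of endothelial cells to 10.2 CPM or less, with Emcn and Tie1 at 0 in every library. Astrocyte markers summed to 72.0, 78.4, 41.1 and 58.8 CPM and those of pericytes and fibroblasts to 14.7, 21.0, 5.48 and 9.0 CPM.

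The share of OPC among nuclei did not separate the groups. OPC made up 2.70% of nuclei in NS 1 (95% Clopper-Pearson interval 2.39 to 3.04), 2.36% in NS 2 (2.08 to 2.67), 2.36% in COL 1 (1.99 to 2.78) and 3.10% in COL 2 (2.68 to 3.56), where intervals cover counting error only. The COL value was above both NS values in 1 library and level with NS 2 in the other, and the means differed by 0.198 percentage points (two-sided exact permutation test, p = 0.667, where 2 against 2 libraries cannot go below 0.3333). The difference took the other sign, −0.169, without COL 2, and −0.403 when every nucleus was first thinned to 2000 UMIs. Within the oligodendrocyte lineage, OPC were 10.4% and 6.25% of nuclei in NS and 7.503% and 10.2% in COL, which overlapped (difference 0.510 percentage points, exact permutation p = 1). That difference was −1.55 without NS 2, −0.815 without COL 2 and −1.49 after thinning. Committed precursors, the next stage, were 3.58% and 3.83% of the lineage in NS and 2.36% and 1.99% in COL. The groups did not overlap there (difference −1.53 percentage points, exact permutation p = 0.3333, the smallest the design allows). Committed precursors held at least 10 UMIs per 10000 of 9630013A20Rik and Enpp6, and fewer of Pdgfra, Vcan and Cspg4. Their share was not recomputed after thinning, and the part of depth in it was not tested.

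Cell division was the list with the largest share of rises in the COL OPC. Of 44 listed genes, 32 had enough UMIs to be tested, and 23 of those rose and 1 fell (edgeR, adjusted p under 0.05), where 6.90% of the 11383 genes tested in OPC rose and 7.92% fell. The median log2 fold change of the 32 was 1.99, beside 0.01 over all tested genes. A gene could pass the low-count filter through its COL counts alone, here and in the lists below. Counts and medians of a list are therefore a description. Mki67 (ENSMUSG00000031004), the proliferation antigen Ki-67, stood at 8.82 and 4.56 CPM in NS and 73.0 and 56.4 CPM in COL. The COL libraries were above the NS libraries, by 3.26 on the log2 scale (SE 0.35; edgeR, adjusted p = 7.5e-05). Top2a (ENSMUSG00000020914), the topoisomerase that untangles chromosomes before mitosis, stood at 26.5, 19.2, 153 and 106 CPM in NS 1, NS 2, COL 1 and COL 2 (log2 fold change 2.54, SE 0.26, adjusted p = 5.9e-05). Knl1, a scaffold of the kinetochore, rose from 11.02 and 7.30 CPM to 102 and 58.8 CPM. Kif15 and Kif11, motors of the mitotic spindle, rose from means of 4.40 and 7.69 CPM to 37.3 and 47.3 CPM, of which Kif11 was named after its values were seen. Diaph3, a formin of the cortex and cleavage furrow, was already present in NS at 52.9 and 46.5 CPM and rose to 176 and 162 CPM. The gene that fell, named for that reason, was Ccnd2 (cyclin D2), at 47.0, 44.7, 21.9 and 23.4 CPM, and its call was lost with DESeq2 and without NS 1, NS 2 or COL 2.

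In all other nuclei of the same libraries, Mki67 stood at 1.33, 1.32, 5.98 and 11.8 CPM and Top2a at 0.761, 0.902, 6.10 and 14.1 CPM. Both were higher in the COL libraries there too, at levels below those of the OPC. In mature oligodendrocytes Top2a reached 3.46 and 8.99 CPM in COL.

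The promoters of Mki67 and Top2a are shown because both genes are widely used markers of dividing cells and were on the division list. Capitals mark the CCAAT box and the cell cycle genes homology region (CHR, TTTGAA), either strand, both known elements of genes that are switched on late in the cell cycle. The sequences are the 250 bases before the RefSeq start of each gene, read along the gene's minus strand in GRCm38.p6, at chr7:135716380-135716629 for Mki67 and chr11:99024190-99024439 for Top2a.
Mki67: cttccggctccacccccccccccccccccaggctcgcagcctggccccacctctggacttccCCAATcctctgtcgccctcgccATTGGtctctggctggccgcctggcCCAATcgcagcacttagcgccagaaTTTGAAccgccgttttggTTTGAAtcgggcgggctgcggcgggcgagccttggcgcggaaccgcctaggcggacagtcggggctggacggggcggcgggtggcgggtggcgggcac
Top2a: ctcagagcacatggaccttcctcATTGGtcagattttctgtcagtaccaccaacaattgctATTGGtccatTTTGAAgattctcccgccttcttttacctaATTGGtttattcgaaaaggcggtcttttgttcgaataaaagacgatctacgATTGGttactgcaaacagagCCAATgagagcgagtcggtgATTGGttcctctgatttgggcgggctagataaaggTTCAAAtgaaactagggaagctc
The Mki67 promoter held 3 CCAAT matches and 2 CHR matches, and that of Top2a held 6 and 2. Of the 44 listed division genes, 36 had a RefSeq promoter, and 27 of them (75%) held CCAAT on either strand. Over promoters of the same length, 37.5% of 27025 genes held it, where a gene counted if any of its promoters matched. The CHR letters were held by 9 of the 36 (25%) and by 18.3% of the 27025 genes. A match is a match of letters only.

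Division UMIs were concentrated in some nuclei. Each OPC was thinned to 2000 UMIs so that depth did not set the share, and 1 OPC of NS 1 and 1 of NS 2 were too shallow. With at least 2 UMIs over the whole division list, 29.6% and 24.6% of OPC counted in NS and 32.9% and 40.2% in COL. Mature oligodendrocytes, which do not divide, gave 25.1%, 25.8%, 31.0% and 30.5% in the same libraries. A count of 2 such UMIs therefore did not mark division alone. The list holds Anln, which is also on the myelin list, and the part of such genes in these shares was not tested. The difference in OPC was 9.43 percentage points (exact permutation p = 0.3333) and ranged from 5.75 to 13.1 with each library left out in turn. When only the 22 genes of mitosis itself were counted, a choice made after values were seen, 1.54% of NS 1 OPC (95% interval 0.421 to 3.89), 2.05% of NS 2 (0.669 to 4.72), 15% of COL 1 (9.53 to 22.01) and 12.9% of COL 2 (8.52 to 18.4) held at least 2 UMIs. Mature oligodendrocytes stood at 0.400%, 0.317%, 0.357% and 0.893%. The COL OPC lay above the NS OPC and above the mature oligodendrocytes in both libraries, by 12.1 percentage points between the OPC means (exact permutation p = 0.3333). Without thinning, the shares of OPC were 6.13%, 4.08%, 23.6% and 23.7%, and those of mature oligodendrocytes 1.16%, 0.965%, 2.91% and 5.66%, which were also higher in COL.

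**Figure D2:**
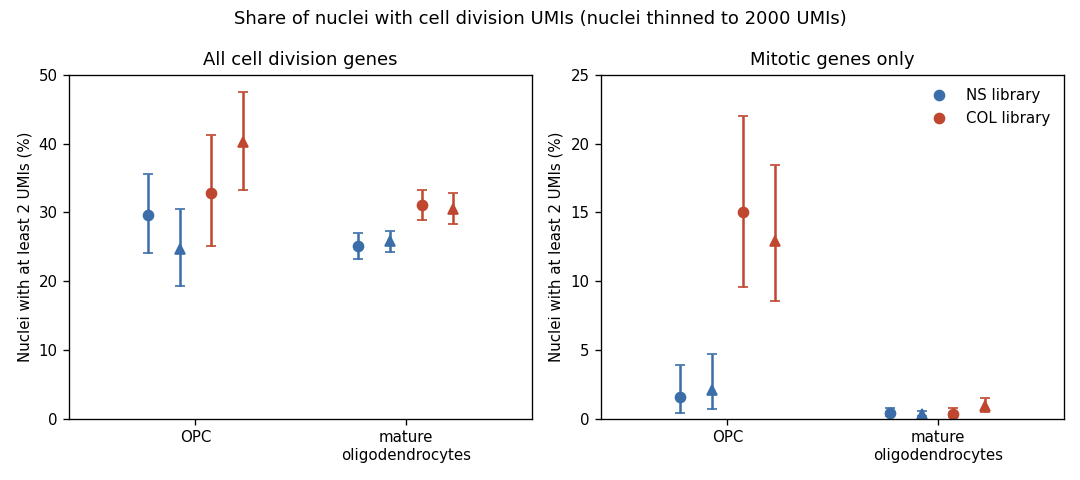
Percentage of nuclei with at least 2 UMIs of cell division genes after thinning to 2000 UMIs, for OPC and mature oligodendrocytes of each library, with 95% Clopper-Pearson bars for counting error. With mitosis genes only, OPC stand at 1.54% and 2.05% in NS and at 15% and 12.9% in COL, and mature oligodendrocytes at or below 0.893%.

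When the OPC with at least 2 mitotic UMIs were left out, 510 genes were higher and 640 lower in COL, in place of 785 and 901 with the whole gate. That fit held fewer UMIs and tested 10659 genes, against 11383, and the part of this in the lower counts was not tested. The nuclei left out numbered 16, 10, 33 and 46, and the choice was made after values were seen. Counts of the division list in that fit are not given, since the same UMIs chose the nuclei.

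The OPC response to Coll IV was wide. Of 11383 genes tested, 785 were higher and 901 lower in COL, 14.8% together. Which direction held more calls depended on the fit, since 314 were higher and 275 lower with DESeq2, and 804 and 754 without COL 1. The CPM of the groups did not overlap for 26.7% of the tested genes with COL above and for 31.9% with COL below. Fstl4 and Ermard shared the smallest adjusted p. Fstl4 encodes a secreted follistatin-like protein and was chosen here after its values were seen (ENSMUSG00000036264, chr11:52764634-53188538, plus strand, GRCm38). It stood at 32.3 and 23.7 CPM in NS and at 540 and 469 CPM in COL, without overlap (log2 fold change 4.21, SE 0.21, adjusted p = 4.41e-08, edgeR). After thinning, 5.38% and 3.69% of NS OPC and 32.9% and 29.4% of COL OPC held an Fstl4 UMI, so the change was spread over many COL nuclei. In mature oligodendrocytes Fstl4 stood at 23.7, 21.96, 54.9 and 60.6 CPM, and in astrocytes at 21.8, 23.5, 57.9 and 35.2 CPM. All nuclei outside the OPC, neurons included, held 181, 177, 271 and 220 CPM. The COL response in OPC exceeded that of mature oligodendrocytes by 2.80 on the log2 scale (SE 0.22, adjusted p = 3.78e-08, interaction of cell type and group) and that of astrocytes by 3.09 (SE 0.29, adjusted p = 2.59e-07).

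Ermard, a gene of the endoplasmic reticulum membrane needed for normal neuron migration, also chosen after its values were seen (ENSMUSG00000036552, chr17:15041208-15090044, plus strand), rose from 29.4 and 31.9 CPM to 394 and 424 CPM (log2 fold change 3.80, SE 0.19, adjusted p = 4.41e-08). Mature oligodendrocytes showed it as well, at 31.5, 26.5, 250 and 219 CPM, and the responses of the 2 cell types were not told apart (interaction 0.72, adjusted p = 0.0678). In astrocytes it stood at 35.8, 34.7, 57.9 and 71.9 CPM, and the OPC response was larger by 2.79 (SE 0.24, adjusted p = 1.15e-07). Glis3, a Krüppel-like zinc finger transcription factor (ENSMUSG00000052942, chr19:28258851-28680077, minus strand), rose from 16.9 and 11.9 CPM to 251 and 373 CPM (log2 fold change 4.47, SE 0.25, adjusted p = 1.41e-07). It was already abundant in astrocytes (333, 240, 521 and 482 CPM) and low in mature oligodendrocytes (11.7, 8.43, 23.1 and 21.0 CPM). The OPC response of Glis3 exceeded that of mature oligodendrocytes by 3.29 (SE 0.30, adjusted p = 1.98e-07) and that of astrocytes by 3.57 (SE 0.26, adjusted p = 6.3e-09). In COL 1, 39.3% of its OPC UMIs lay in a single nucleus, and its annotated span overlaps 4933413C19Rik on the same strand.

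**Figure D3:**
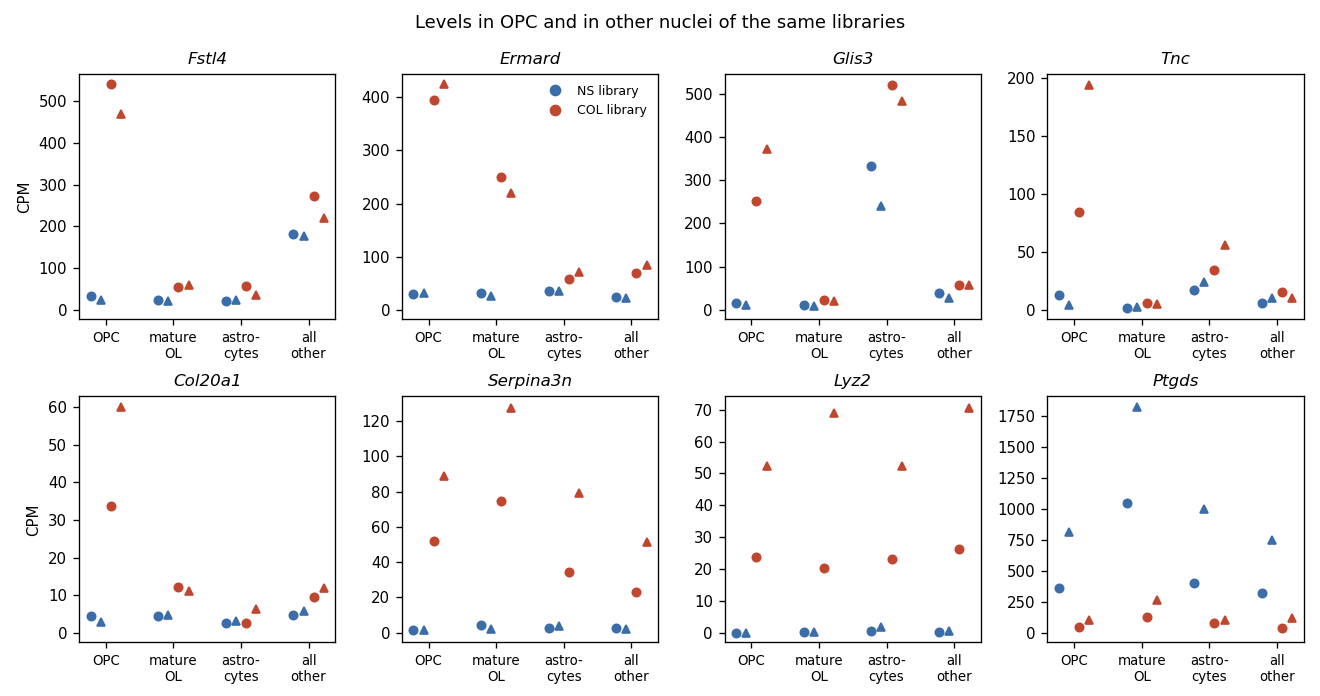
Levels in CPM of 8 genes in OPC, mature oligodendrocytes, astrocytes and all other nuclei, with 1 point per library (circle, replicate 1; triangle, replicate 2; blue, NS; red, COL). Fstl4 lies at 540 and 469 CPM in the COL OPC and at 54.9 and 60.6 CPM in the COL mature oligodendrocytes, while Ptgds is lower in COL in every cell type drawn.

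Hmga2, an architectural chromatin protein of the fetal brain and of dividing progenitors (ENSMUSG00000056758, chr10:120361275-120476469, minus strand), rose from 13.2 and 1.82 CPM to 266 and 454 CPM (log2 fold change 5.53, SE 0.38, adjusted p = 1.76e-06). Its UMIs lay in few nuclei. At least 3 UMIs, a bound set after the values were seen and given with no test, were held by 0 of 261 and 0 of 245 OPC in NS, by 10 of 140 (7.14%) in COL 1 and by 19 of 194 (9.79%) in COL 2. Those nuclei carried 94.5% and 96.4% of the Hmga2 UMIs of the COL OPC, and the highest held 94 and 162 UMIs. They had median totals of 10754 and 10117 UMIs, against 7075.5 and 7512 for the other COL OPC, and they held at least 2 mitotic UMIs in 6 of 10 and 8 of 19 cases, against 27 of 130 and 38 of 175. OPC markers lay on both sides of the other COL OPC of the same library. Olig2 stood in them at 59.1 and 120 CPM against 29.7 and 53.1 in the others, and Sox6 at 2642 and 3051 CPM against 2319 and 2315. Sox10 (211 and 193 against 125 and 228 CPM) and Lhfpl3 (11294 and 8232 against 9297 and 8936 CPM) were higher in COL 1 and lower in COL 2. Lower in both libraries were Cacng4, at 642 and 741 CPM against 979 and 986, C1ql1, at 16.9 and 41.4 against 67.6 and 83.5, and Neu4, at 25.3 against 122 in COL 1 and 110 against 116 in COL 2. The genes that the gate required are given as a description only, with Pdgfra at 439 and 561 CPM against 555 and 582, Vcan at 1148 and 1192 against 1447 and 1205, and Cspg4 at 177 and 230 against 255 and 324. Ptprc and Pdgfrb, genes of leukocytes and pericytes, were at 0. Lyz2 stood in them at 8.44 and 50.6 CPM, Csf1r, a microglial gene, at 0 and 9.20, Aqp4, an astrocyte gene, at 0 and 27.6, and Flt1, an endothelial gene, at 16.9 and 18.4 (2 and 4 UMIs) against 0 and 2.76 in the other COL OPC. Rbfox3, a neuronal gene, stood at 92.9 and 32.2 CPM against 32.8 and 59.3 in the other COL OPC. Tnc stood in them at 633 and 1380 CPM and Glis3 at 1477 and 1799 CPM, against 18.4 and 16.6 CPM and 102 and 159 CPM in the other COL OPC. Outside the OPC, 5, 3, 27 and 24 barcodes of the 4 libraries held at least 3 Hmga2 UMIs.

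**Figure D4:**
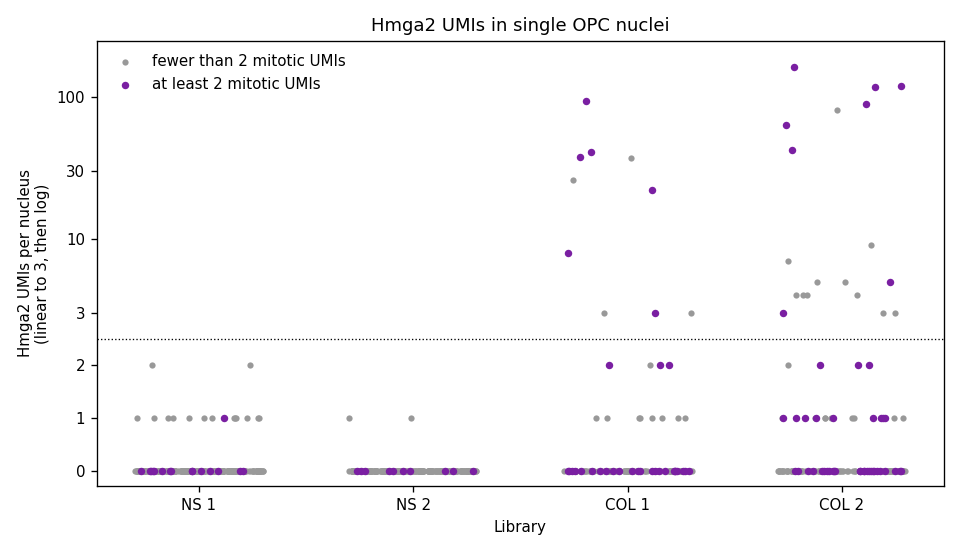
Hmga2 UMIs in each OPC nucleus (vertical axis, linear to 3, then log) by library, with nuclei of at least 2 mitotic UMIs in purple, the others in grey, and the dotted line below 3 UMIs. No NS nucleus exceeds 2 Hmga2 UMIs, while 10 and 19 nuclei of COL 1 and COL 2 hold at least 3, up to 94 and 162.

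Of 31 listed genes of the extracellular matrix, 27 were tested, 4 rose and 3 fell, beside 6.90% and 7.92% of all tested genes. The falls were near the share of all tested genes that fell. The falls numbered 1 without NS 1 and 1 without NS 2, and the rises 6 without COL 2. Tnc (tenascin C), a glycoprotein of developing and injured tissue, rose from 12.5 and 4.56 CPM to 84.9 and 194 CPM (log2 fold change 4.04, SE 0.41, adjusted p = 5.69e-05), with 60.2% of its COL 2 UMIs in a single OPC. The nuclei with at least 3 Hmga2 UMIs held 75 of its 93 UMIs in COL 1 and 300 of 324 in COL 2, and the other COL OPC stood at 18.4 and 16.6 CPM. Its response exceeded that of mature oligodendrocytes by 2.56 and that of astrocytes by 2.72 (adjusted p = 0.00767 and 1.77e-04). Adamts9, a protease that cleaves versican, rose from 33.1 and 35.6 CPM to 117 and 157 CPM, and stayed between 80.2 and 101 CPM in astrocytes. Col11a1, a fibrillar collagen chain, rose from 132 and 170 CPM to 425 and 494 CPM. Fn1 (fibronectin) stood at 4.41, 2.74, 14.6 and 11.4 CPM, and its call was lost with DESeq2 and whichever of the 4 libraries was left out. Bcan (brevican) fell from 268 and 195 CPM to 128 and 134 CPM, and Cspg5 (neuroglycan C) from 590 and 617 CPM to 365 and 388 CPM. The call of Bcan was lost without NS 1 (adjusted p = 0.112) and that of Cspg5 without NS 2 (adjusted p = 0.255). Both were lower in all other nuclei of COL as well, at 52.2, 51.9, 27.4 and 38.5 CPM and at 93.9, 90.8, 52.4 and 64.1 CPM. Outside the rule for named genes, Col20a1, a collagen chain that associates with fibrils, was seen to rise from 4.41 and 2.74 CPM to 33.8 and 59.998 CPM.

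Among guidance and migration genes, 38 of 40 were tested, 14 rose and 1 fell, beside 6.90% and 7.92% of all tested genes. With DESeq2, 4 of them rose and 0 fell, and 7 rose without NS 1 and 8 without NS 2. Cd44, the receptor for hyaluronan, rose from 2.94 and 4.56 CPM to 84.9 and 45.0 CPM, with 61.3% of its COL 1 UMIs in a single OPC. The nuclei with at least 3 Hmga2 UMIs stood at 169 and 189 CPM in COL 1 and COL 2, and the other COL OPC at 74.7 and 23.5 CPM. Itgav, the integrin alpha V chain, rose from 169 and 206 CPM to 309 and 365 CPM. Robo2, a Slit receptor, rose from 76.4 and 99.4 CPM to 188 and 155 CPM, and Slit3, a ligand of the same system, from 36.7 and 29.2 CPM to 76.7 and 55.8 CPM. The call of Slit3 was lost without COL 1, with DESeq2 and with the stricter gate. It was also lost with the 10% deepest nuclei or the mitotic nuclei left out. After thinning, the log2 fold change of Slit3, 1.04, was 0.66 (edgeR, adjusted p = 0.342). Sema3d, a secreted semaphorin, rose from 308 and 380 CPM to 641 and 562 CPM and was low in all other nuclei (15.5 to 23.03 CPM). Its call was lost without NS 1. Ephb2, an ephrin receptor, stood at 72.0, 84.8, 120 and 131 CPM, and its call was lost without NS 1 and with DESeq2. The call of Ephb2 was also lost with the stricter gate, after thinning and with mitotic nuclei left out. The member that fell was Sema3c (41.9, 42.9, 16.4 and 21.6 CPM), which was lower in all other nuclei as well (51.8, 47.2, 24.2 and 30.3 CPM). Its call was lost without NS 2, with DESeq2, with the stricter gate, after thinning and with the 10% deepest nuclei left out.

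Of 18 genes of differentiation onset, 15 were tested, 6 rose and 0 fell, beside 6.90% and 7.92% of all tested genes, with a median log2 fold change of 0.47. Bcas1, a marker of newly forming oligodendrocytes, rose from 430 and 431 CPM to 606 and 933 CPM (log2 fold change 0.89, and 0.57 without COL 2). The 4 markers of committed precursors, of which Bcas1 is one and 2 were bounded by the gate, were all detected and summed in the gated OPC to 550, 531, 683 and 1058 CPM. The 5 mature oligodendrocyte markers, all detected, summed to 254, 369, 297 and 446 CPM, under the limit that the gate set on them in each nucleus. The part of these markers in the rises was not tested. Nfasc (neurofascin), which helps to assemble nodes of Ranvier, rose from 191 and 158 CPM to 424 and 445 CPM, and in mature oligodendrocytes stood at 731, 639, 1271 and 1218 CPM. Epb41l2, a cytoskeletal linker, rose from 69.8 and 59.3 CPM to 138 and 174 CPM, and Fyn, a kinase of process outgrowth, from 259 and 251 CPM to 409 and 443 CPM. Frmd4a (584, 541, 928 and 877 CPM) and Cnksr3 (28.7, 31.0, 63.9 and 46.2 CPM) completed the 6. Calls were lost without NS 2 for Fyn, without either NS library for Frmd4a, and without NS 1 or COL 1 and with DESeq2 for Cnksr3. Of 20 tested myelin genes, 1 rose and 1 fell, shares below those of all tested genes, with a median log2 fold change of −0.45. The number of falls was 6 without NS 1, 8 without COL 2, 0 without NS 2 and 5 with the replicate block. Anln (anillin), which is also a cytokinesis protein, stood at 10.3, 11.9, 34.7 and 28.2 CPM, and Opalin, a glycoprotein of the myelin sheath, at 32.3, 43.8, 6.39 and 19.2 CPM. Both calls were lost with DESeq2 and after thinning, that of Anln also without NS 1 and that of Opalin also without NS 2. The log2 fold change of Anln, 1.55, was 0.70 with the stricter gate (edgeR, adjusted p = 0.431). The call of Anln was also lost with the 10% deepest nuclei left out, and that of Opalin with mitotic nuclei left out.

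Of 20 companion genes of the gate, all tested, 0 rose and 2 fell, beside 6.90% and 7.92% of all tested genes. The counts were 2 and 1 with DESeq2, 3 and 3 after thinning, 3 and 2 without COL 1, and 4 and 4 without COL 2. Lhfpl3, the most abundant, stood at 6539, 6986, 9513 and 8844 CPM, Sox6 at 1816, 1743, 2354 and 2411 CPM and Sox10 at 253, 292, 134 and 223 CPM, and none of these passed the test. Gpr37l1, an orphan receptor, fell from 101 and 100 CPM to 32.0 and 51.6 CPM, and Sox8 from 82.3 and 109 CPM to 42.0 and 57.0 CPM. Sox8 was not called without NS 2, with DESeq2, with the stricter gate or with mitotic nuclei left out. Of the markers that the gate did not use, C1ql1 fell (log2 fold change −0.84, SE 0.19, edgeR, adjusted p = 0.0102). That call was lost without NS 2 and with DESeq2. It was also lost after thinning (−0.58, edgeR, adjusted p = 0.149) and with mitotic nuclei left out (−0.58, adjusted p = 0.0645). Neu4 (−0.35, adjusted p = 0.201) and Cacng4 (0.19, adjusted p = 0.462) did not pass the edgeR test. Gpr37l1 and C1ql1 were lower in all other nuclei of COL too, at 26.7, 26.8, 4.56 and 10.9 CPM and at 7.60, 8.85, 1.78 and 4.70 CPM.

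Growth factor receptors and their feedback regulators gave 0 rises and 3 falls among 17 tested of 20, beside 7.92% of all tested genes that fell. Without COL 2, 2 rose and 2 fell. Etv4, a transcription factor downstream of FGF signalling, fell from 231 and 194 CPM to 110 and 121 CPM. Fgfr2 and Fgfr3, receptors of fibroblast growth factors, stood at 263, 334, 99.5 and 187 CPM and at 36.7, 21.9, 12.8 and 10.8 CPM. The call of Fgfr3 was lost with DESeq2 and without NS 1 or COL 2, and the annotated span of Fgfr2 overlaps other genes. Both receptors were lower in all other nuclei of COL as well. Among brakes of differentiation, 21 of 29 were tested, 3 rose and 2 fell, beside 6.90% and 7.92% of all tested genes, and DESeq2 called 0 in either direction. Hes5 and Hes1, targets of Notch, stood at 49.2, 24.6, 15.5 and 5.40 CPM and at 27.2, 13.7, 3.65 and 6.0 CPM. Notch1 itself stood at 55.1, 42.0, 74.9 and 87.0 CPM. Lef1 and Tcf7l1, factors of the Wnt pathway, stood at 14.7, 22.8, 64.8 and 32.4 CPM and at 48.5, 35.6, 50.2 and 91.2 CPM. Each of these 5 calls was lost without at least 1 library.

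Ion channels and transmitter receptors let OPC respond to neurons. Of 26 tested channel genes, 4 rose and 1 fell, beside 6.90% and 7.92% of all tested genes. The rises numbered 8 without COL 2 and 2 without NS 2. Cacng5, an auxiliary subunit of AMPA receptors, rose from 11.02 and 5.47 CPM to 36.5 and 42.0 CPM. Cacna2d3 rose from 423 and 367 CPM to 789 and 683 CPM and Cacna1c, an L-type calcium channel, from 598 and 548 CPM to 883 and 819 CPM, a call lost without either NS library. Kcnip4, a partner of potassium channels, stood at 1217, 760, 2933 and 1318 CPM, and its call was lost without NS 2 and with DESeq2 (adjusted p = 0.385). Its log2 fold change of 1.19 was 0.43 without COL 1. Kcnj16, an inward rectifier, fell from 45.6 and 38.3 CPM to 23.7 and 18.0 CPM, a call lost with DESeq2 and without NS 1, NS 2 or COL 2. Its log2 fold change of −0.98 was −0.20 with the stricter gate (edgeR, adjusted p = 0.799). The call was also lost after thinning, and with the deepest nuclei, the mitotic nuclei or those with markers of other cells left out. Of 29 tested glutamate and GABA receptors, 2 rose and 0 fell, and the share that rose was that of all tested genes (6.90%). Without COL 2, 8 rose and 1 fell, without COL 1, 2 rose and 2 fell, and with the stricter gate 4 rose. Grik3, a kainate receptor, rose from 215 and 186 CPM to 420 and 413 CPM and Grin2a, an NMDA receptor subunit, from 46.3 and 64.8 CPM to 128 and 99.0 CPM.

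Of 27 genes reported in oligodendrocyte lineage cells of injured tissue, 18 were tested, 9 rose and 0 fell. The shares of all tested genes were 6.90% and 7.92%, and the median log2 fold change of the 18 was 1.05. Cd44, C4b, B2m and Il33 are among the 9 and are counted again in other lists. Without COL 1, 14 of 25 tested rose. Serpina3n, a serine protease inhibitor, rose from 1.47 and 1.82 CPM to 52.0 and 88.8 CPM (log2 fold change 5.43, SE 0.46, adjusted p = 1.08e-05). Mature oligodendrocytes stood at 4.46, 2.13, 74.8 and 128 CPM, in the same range. C4b, complement component 4, held 2 UMIs in the NS OPC and 148 in the COL OPC, a ratio of 65.8 with an exact counting interval of 17.9 to 549. It stood at 117 and 166 CPM in the COL mature oligodendrocytes. Cd9, a tetraspanin, rose from 132 and 158 CPM to 265 and 349 CPM. In mature oligodendrocytes it stood at 126, 130, 126 and 151 CPM, and the response of the OPC was larger by 0.95 (SE 0.16, adjusted p = 3.90e-04). Anxa2 (annexin A2), with 3 and 59 UMIs in the groups, had a ratio of 17.5 (5.70 to 87.3), and Vim (vimentin), with 3 and 41 UMIs, had a ratio of 12.2 (3.88 to 61.4) and lost its call without COL 2.

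Among the genes of cytokine signalling, counts of rises are set beside the 6.90% of all tested genes that rose. Of 9 tested genes of gp130 and STAT3 signalling, out of 16, 3 rose and 0 fell. Stat3 rose from 77.9 and 60.2 CPM to 167 and 164 CPM, and in mature oligodendrocytes stood at 60.4, 52.1, 177 and 152 CPM. Osmr, the oncostatin M receptor, held 1 UMI in NS and 42 in COL (ratio 37.4, interval 6.35 to 1510). Bcl3, an atypical member of the IκB family, held 0 UMIs in NS and 65 in COL, at least 19.3-fold higher against a floor of 3 UMIs over the group. Among cytokines and their receptors, 21 of 35 were tested, 4 rose and 0 fell, and with DESeq2 1 rose. Without NS 2 or COL 2 the rises numbered 2. Il1r1, the receptor of interleukin 1, held 1 and 45 UMIs (ratio 40.03, interval 6.83 to 1616) and reached 11.9 and 19.2 CPM in the COL OPC, against 1.73 and 2.12 CPM in the COL mature oligodendrocytes. Il1rap, its partner, stood at 224, 243, 321 and 328 CPM, Il33 at 13.2, 11.9, 41.1 and 26.4 CPM and Nfkbiz at 5.14, 7.30, 12.8 and 21.0 CPM. The calls of the last 3 genes were lost with DESeq2. The log2 fold change of Il33, 1.45, was 0.47 with mitotic nuclei left out (edgeR, adjusted p = 0.497) and 0.49 with the 10% deepest nuclei left out (adjusted p = 0.461), and its call was also lost without COL 1 and with the stricter gate. The calls of Il1rap and Nfkbiz were lost without either NS library, and that of Nfkbiz also without COL 2. Of 15 tested genes of TGF-beta and activin signalling, 2 rose and 0 fell, and with DESeq2 0 rose. They were Tgfbr2 (0.735, 4.56, 10.95 and 19.2 CPM) and Acvr1 (86.7, 85.7, 121 and 121 CPM), and the call of Tgfbr2 was lost without NS 1 or COL 2 and that of Acvr1 whichever of the 4 libraries was left out.

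Of 30 interferon response genes, 13 were tested, 6 rose and 0 fell, with a median log2 fold change of 0.81. For this list and the next pair, 6.90% of all tested genes rose and 7.92% fell. Both DESeq2 and the fit without nuclei that carried markers of other cells called 1 rise, and without COL 2 the rises numbered 3. Rsad2 (viperin), with 1 and 32 UMIs, had a ratio of 28.5 (4.76 to 1159). Trim30a stood at 2.204, 0.912, 24.6 and 10.2 CPM, Oasl2 at 1.47, 0, 8.22 and 12.6 CPM, Gbp7 at 2.94, 3.65, 11.9 and 17.4 CPM, Stat2 at 17.6, 22.8, 43.8 and 45.0 CPM and Rnf213 at 34.5, 27.4, 49.3 and 75.0 CPM. The calls of the last 5 genes were each lost without at least 1 library. All 6 were also higher in the other nuclei of COL. Among antigen presentation genes, 7 of 17 were tested, and 3 rose and 0 fell. With DESeq2 2 of the 7 rose, and after thinning 1 member was tested and 0 rose. The number of members tested changed with a library left out. Nlrc5, the activator of MHC class I genes, rose from 2.94 and 0.912 CPM to 19.2 and 17.4 CPM and B2m, the light chain of class I, from 8.82 and 13.7 CPM to 27.4 and 47.4 CPM. Cd74, the invariant chain of class II and abundant in antigen-presenting cells, held 3 and 110 UMIs (ratio 32.6, interval 10.9 to 161), stood at 63.8 CPM in all other nuclei of COL 2, and lost its call without COL 2 and with DESeq2. Of 6 tested complement genes, 2 rose and 1 fell, where the rises numbered 1 without NS 1 or COL 2, 3 without NS 2 and 4 without COL 1. C1qc, a microglial gene, stood at 7.35, 4.56, 11.9 and 23.4 CPM. Its call was lost when nuclei with markers of other cells were left out (edgeR, adjusted p = 0.0655), with DESeq2, with mitotic nuclei left out and without NS 1, NS 2 or COL 2 (adjusted p up to 0.353). Clu (clusterin) fell from 88.9 and 83.0 CPM to 27.4 and 39.6 CPM.

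**Figure D5:**
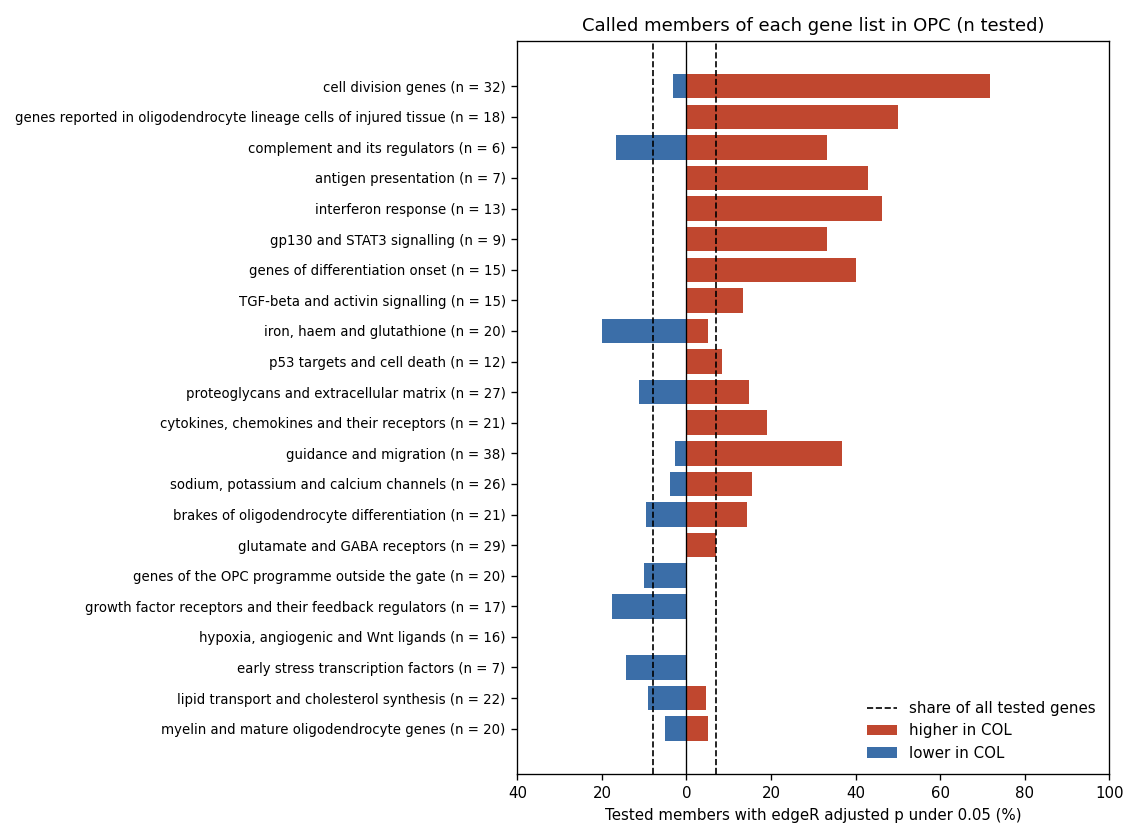
Percentage of tested members that were higher (red) or lower (blue) in the COL OPC, for lists with at least 6 tested genes; dashed lines mark the shares of all tested genes, 6.90% higher and 7.92% lower. Cell division (23 of 32 higher) and the genes of injured tissue (9 of 18 higher) lie furthest to the right.

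Of 20 tested genes of iron, haem and glutathione, 1 rose and 4 fell, beside 6.90% and 7.92% of all tested genes. The single rise is close to what the share of all tested genes gives. DESeq2 called 1 rise and 1 fall, 3 rose and 2 fell without NS 2, and 4 rose and 4 fell without COL 1. Hmox1, the haem oxygenase that degrades haem, held 1 and 61 UMIs (ratio 54.3, interval 9.38 to 2178) and stood at 35.6 and 30.4 CPM in all other nuclei of COL, above the 20.1 and 23.4 CPM of the OPC. Fth1 (ferritin heavy chain) stood at 362, 538, 84.9 and 281 CPM, Gpx4 at 34.5, 40.1, 5.48 and 12.6 CPM, Steap3, a ferrireductase, at 24.2, 29.2, 4.56 and 10.2 CPM and Cp (ceruloplasmin), a ferroxidase, at 148, 136, 73.0 and 93.0 CPM. Of 22 tested lipid genes, 1 rose (Ldlrad3) and 2 fell, near the shares of all tested genes, and Scd2 and Scd1, stearoyl-CoA desaturases, stood at 335, 441, 116 and 243 CPM and at 13.96, 11.9, 0.913 and 4.80 CPM. Of 12 tested p53 targets and cell death genes, 1 rose, Gadd45g (2.94, 0.912, 16.4 and 13.2 CPM), and of 7 tested early stress factors 1 fell, Jund (45.6, 50.2, 9.13 and 27.6 CPM), where a single call is close to what the shares of all tested genes give. The call of Scd1 was lost without NS 1, NS 2 or COL 1 (edgeR, adjusted p up to 0.279), that of Ldlrad3 without NS 1 (adjusted p = 0.229), those of Steap3 and Cp without NS 2 and that of Jund without COL 1. DESeq2 called none of Scd1, Scd2, Ldlrad3, Gadd45g, Jund, Fth1, Steap3 and Cp. Among 16 tested genes of hypoxia, angiogenesis and Wnt ligands, 0 were called by edgeR, beside 14.8% of all tested genes. DESeq2 called 0 of them, and 4 had an unadjusted p under 0.05 with edgeR. The edgeR falls numbered 4 without COL 1, 2 without NS 1 and 3 with the replicate block, and 1 rose and 1 fell without NS 2.

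By size of the fold, the largest rises included genes of macrophages. Lyz2 (lysozyme) and Gpnmb are markers of phagocytes. Lyz2 held 0 UMIs in the NS OPC and 113 in the COL OPC, at least 33.5-fold higher against the floor, at 23.7 and 52.2 CPM. In all other nuclei it stood at 26.2 and 70.6 CPM in COL. Gpnmb held 1 and 164 UMIs (ratio 146, interval 25.8 to 5797) at 52.9 and 63.6 CPM, against 29.3 and 58.5 CPM in all other nuclei of COL. Ly86, a partner of a Toll-like receptor of leukocytes, held 3 and 108 UMIs (ratio 32.0, interval 10.7 to 158) and stood at 72.4 and 108 CPM in all other nuclei of COL, above its 26.5 and 47.4 CPM in OPC. Macrophage markers in sum stood higher in COL than in NS, in OPC and in all nuclei, and their part in these values was not tested. Rbm47, an RNA-binding protein, held 0 and 99 UMIs (at least 29.4-fold higher), but 83.6% of its COL 1 UMIs lay in 1 nucleus, and its span overlaps other gene models. Myo5b, an unconventional myosin, held 1 and 99 UMIs (ratio 88.1, interval 15.4 to 3513) over 13 and 16 COL nuclei, and stood at 3.74 and 2.54 CPM in the COL mature oligodendrocytes. Gm14005, a gene without a described protein, held 3 and 107 UMIs (ratio 31.7).

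The 12 genes with the largest falls by the rule for named genes were also lower in all other nuclei of COL. Ptgds, prostaglandin D2 synthase, stood at 362 and 811 CPM in the NS OPC and at 46.6 and 103 CPM in the COL OPC (log2 fold change −2.89, SE 0.36, adjusted p = 2.26e-04). In all other nuclei it stood at 318, 746, 41.8 and 118 CPM, so that OPC and the other nuclei of a library lay close together. Resp18 (189, 131, 10.0 and 35.4 CPM) and Bex2 (96.3, 84.8, 6.39 and 20.4 CPM), genes of neurons and endocrine cells, Cox5b (56.6, 67.5, 6.39 and 10.8 CPM), a subunit of respiratory complex IV, and Gstm5 (31.6, 40.1, 2.74 and 7.20 CPM), a glutathione transferase, fell in the same way. Agt (angiotensinogen), a gene of astrocytes, stood at 26.5, 25.5, 1.83 and 4.80 CPM in OPC, at 24.4, 20.2, 1.45 and 3.61 CPM in all other nuclei and at 158, 122, 37.3 and 47.7 CPM in astrocytes. The other falls by the rule were gene models without a described protein. Of these, Gm20713 (270, 295, 30.1 and 54.0 CPM) and Gm36146 (43.4, 68.4, 3.65 and 12.6 CPM) stood in the NS OPC above the sum of all other nuclei (at most 112 and 8.12 CPM), and Gm19522, 8030451O07Rik, Gm28750 and Gm2516 had log2 fold changes of −2.82, −2.78, −2.76 and −2.60. DESeq2 did not call 8030451O07Rik. With a library left out, the log2 fold change reached −5.25 for 8030451O07Rik and −4.49 for Gm28750. The 24 genes that the rule for named genes picked as largest rises and falls kept their direction with each library left out in turn. That rule asked for called genes without overlap of the groups, so this adds no separate support.

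Where the OPC response differed from that of mature oligodendrocytes was tested directly. Of 17071 genes, 172 (1.01%) had a higher COL response in OPC and 404 (2.37%) a lower one, 3.37% together. The lower responses outnumbered the higher ones by less without NS 2, a fit that leaves 1 library in the NS group. What the larger number of lower responses rested on was not tested. Beside Glis3, Myo5b and Ly86, the largest in the OPC direction were Kif18a (interaction 3.00), a kinesin of chromosome alignment, Prc1 (2.90), which bundles the midzone of the spindle, and Slc14a1 (2.83), a urea transporter. Kif18a stood at 5.14, 5.47, 35.6 and 20.4 CPM in OPC and at 1.82 to 5.08 CPM in mature oligodendrocytes. Prc1 stood at 16.2, 10.9, 45.6 and 38.4 CPM in OPC and at 13.6, 15.4, 3.36 and 8.14 CPM in mature oligodendrocytes. Slc14a1 stood at 5.88, 3.65, 28.3 and 27.0 CPM, and at 1.15 to 2.205 CPM in mature oligodendrocytes. In the other direction, Steap3 (interaction −4.90, SE 0.51, adjusted p = 1.21e-06) was lower in the COL OPC and stood at 1.74, 1.02, 13.2 and 10.8 CPM in mature oligodendrocytes. Col27a1, a fibrillar collagen, stood at 84.5, 76.6, 64.8 and 52.8 CPM in OPC and at 13.4, 7.58, 41.9 and 28.3 CPM in mature oligodendrocytes (interaction −2.21, adjusted p = 2.74e-06). Tes (testin), a focal adhesion protein, fell from 104 and 119 CPM to 14.6 and 40.2 CPM in OPC and lay between 1.98 and 2.80 CPM in mature oligodendrocytes (interaction −2.37). The gene models Gm12394, Gm28750 and 2600014E21Rik had interactions of −2.35, −2.32 and −2.23.

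Against astrocytes, 12977 genes were tested, 61 (0.470%) had a higher COL response in OPC and 252 (1.94%) a lower one, 2.41% together. Beside Glis3, Myo5b, Ly86 and Rbm47, the largest in the OPC direction were Kif4 (interaction 3.97), a kinesin of chromosome condensation, and Sv2c (3.10), a synaptic vesicle protein. Kif4 stood at 5.14, 8.21, 46.6 and 36.6 CPM in OPC and at 13.5, 9.47, 2.57 and 5.47 CPM in astrocytes. Sv2c stood at 5.14, 11.9, 47.5 and 55.2 CPM in OPC and at 7.80, 9.92, 5.14 and 7.04 CPM in astrocytes. The fitted interactions of Rbm47 (6.77) and Myo5b (5.21) rest on 0 and 1 UMIs in the NS OPC and depend on the fit's handling of low counts. In the other direction lay Cp, at 5.38, 10.8, 156 and 174 CPM in astrocytes against 148, 136, 73.0 and 93.0 CPM in OPC (interaction −5.27, SE 0.27, adjusted p = 1.4e-11). Ctnna3, an alpha catenin, fell from 578 and 870 CPM to 174 and 344 CPM in OPC, while it stood at 85.0, 152, 231 and 285 CPM in astrocytes (interaction −2.70, adjusted p = 3.44e-09) and between 1574 and 1724 CPM in mature oligodendrocytes. DESeq2 did not call its fall in OPC. Calcrl, the receptor of adrenomedullin and CGRP, stood at 161, 171, 129 and 125 CPM in OPC, where it was not called (adjusted p = 0.209), and at 1.35, 3.16, 16.7 and 8.60 CPM in astrocytes (interaction −2.92). Abca6, Has2os and Col26a1 had interactions of −3.60, −3.22 and −2.77, each with 30.9 CPM or less in astrocytes. COL astrocytes numbered 126 and 173 nuclei, and without NS 1 the number of genes that differed from astrocytes was 92 in place of 313.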

How the data were processed

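According to the methods, the authors sequenced 10x Genomics libraries of thalamic nuclei and counted them with Cell Ranger 1.2.0 against mm10. The tables that the authors deposited hold raw UMI counts, as whole numbers, of each gene in each barcode, and total 68746459 to 77557870 UMIs per library. Groups follow the labels (NS, saline; COL, Coll IV). Barcodes with at least 500 genes and under 5% mitochondrial UMIs were kept, 32241 in all. The OPC gate, the gene lists and the tests were chosen with earlier results of these data known. Mature oligodendrocytes (at least 40 UMIs per 10000 of their genes) and astrocytes (at least 15 of Aqp4, Gja1, Slc39a12 and Slc1a3) were gated for comparison.

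For each library and gated cell type the counts were added up, and CPM are UMIs per 1000000 of such a sum. The sums were tested with edgeR 4.0.16 (limma 3.58.1, R 4.3.3): TMM scaling, the default filter on low counts, a quasi-likelihood test and Benjamini-Hochberg adjusted p under 0.05 over all genes tested. Interactions of cell type and group had the library as a block. Genes of the gate that passed the filter stayed in the fits and in the counts over all genes, but no test of them is given. Each share was tested by two-sided exact permutation of its values in the 4 libraries. Intervals are exact 95% ones and cover counting error only. Alternatives were DESeq2 1.42.0, RLE scaling, no filter, a stricter gate, nuclei with at least 10 UMIs per 10000 of another cell type left out, thinning, each library left out, the 10% deepest nuclei left out and a replicate block. Added after seeing the data were mitosis genes only and mitotic nuclei left out. On simulated OPC counts of 11383 genes, edgeR recovered 42% of genes changed by 1 on the log2 scale and 87% of those at 2. It made 9 false calls. DESeq2 recovered 15% and 69%, with 0 false calls. Every simulated gene was given the same spread between libraries, so differences in spread between genes were not covered.

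Genes were named by a rule: the 12 largest changes in each direction among called genes whose groups did not overlap, with at least 20 CPM in each library of the higher group, up to 6 called genes of each list by smallest p, and the 6 largest interactions in each direction. Fstl4, Ermard, Col20a1, Kif11, Ccnd2 and Sema3c were named after their values were seen. The values of 1 gene that the rule names are not reported here. Positions are those of GENCODE vM21 (GRCm38), and promoters are those of RefSeq for GRCm38.p6. The other values came from Python 3.11.15 (numpy 2.4.6; scipy 1.17.1; pandas 2.3.3) and the plots from matplotlib 3.10.9.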

Additional observations from a re-analysis of the deposited data

Results flagged for a closer look

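A difference between cell types in the response to Coll IV was tested as the interaction of cell type and group (edgeR, log2 scale, adjusted p under 0.05) and passed for the genes below. Relative to mature oligodendrocytes, the COL response in OPC was higher for Myo5b (5.99), Glis3 (3.29), Kif18a (3.00), Ly86 (2.98), Prc1 (2.90), Slc14a1 (2.83), Fstl4 (2.80), Tnc (2.56), Col20a1 (2.32), Diaph3 (1.49), Adamts9 (1.49) and Cd9 (0.95). It was lower for Steap3 (−4.90), Tes (−2.37), Gm12394 (−2.35), Gm28750 (−2.32), 2600014E21Rik (−2.23) and Col27a1 (−2.21).

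Relative to astrocytes, the COL response in OPC was higher for Rbm47 (6.77), Myo5b (5.21), Kif4 (3.97), Glis3 (3.57), Ly86 (3.27), Sv2c (3.10), Fstl4 (3.09), Col20a1 (2.94), Ermard (2.79), Tnc (2.72), Adamts9 (1.84), Cd9 (1.26) and Diaph3 (1.00). It was lower for Cp (−5.27), Abca6 (−3.60), Has2os (−3.22), Calcrl (−2.92), Col26a1 (−2.77) and Ctnna3 (−2.70). The named genes were chosen with these values in view, and no explanation of the differences was tested.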

How the results depend on the processing

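The number of genes called in OPC, 1686, was 589 with DESeq2, 744 with the stricter gate, 740 after thinning to 2000 UMIs, and 910 to 1826 with each library left out in turn, lowest without NS 2. With the replicate number as a block it was 1923. NS 1 and COL 1 deviated together only weakly (correlation 0.0835 across genes). The labels tie no NS library to a COL library, and a batch shared by a replicate number was not tested. Against mature oligodendrocytes, 576 became 246 with DESeq2 and 359 to 547 with a library left out, lowest without NS 2. Against astrocytes, 313 became 114 with DESeq2, 184 with the stricter gate, 125 after thinning, and 92 to 386 with a library left out, lowest without NS 1. Thinning and the stricter gate leave fewer UMIs, and fewer genes passed the filter there (7184 and 8107 in OPC, against 11383). The cause of these changes was not tested. The OPC share of nuclei differed by −0.169 to 0.566 percentage points with a library left out (below 0 without COL 2) and by −0.403 after thinning, and the share of the lineage by −1.55 to 2.57 (below 0 without NS 2 and without COL 2) and by −1.49 after thinning. The share of OPC with division UMIs differed by 5.75 to 13.1. For 120 named genes, 1277 of 1480 alternative fits kept the direction and the side of the threshold, 200 lost the call and 3 gained it, and none changed direction. Of 114 named genes that were called, some lost the call with a library left out, a fit that leaves 1 library in a group. DESeq2 did not call 43 of the 114. Calls were lost for 23 with the stricter gate, 21 after thinning and 11 with the 10% deepest nuclei left out. They were lost for 19 with mitotic nuclei left out and for 9 without nuclei that carried markers of other cells. Genes that a fit did not test are not counted as lost, and not every loss is given beside its gene. Depth limits the folds of genes with 3 or fewer UMIs in NS, whose counting intervals are wide, and at 2 libraries per group the exact permutation test of a share cannot go below 0.3333.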
